A study of Mus musculus with 51 samples.

Results

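The HoxB cluster of mouse chromosome 11 was followed through its 8 contiguous genes Hoxb9, Hoxb8, Hoxb7, Hoxb6, Hoxb5, Hoxb4, Hoxb3 and Hoxb2, which are 8 of the 39 Hox genes measured in the time course. They were taken by name with no filter on value, and earlier results of these data were known. On GRCm38 they lie on the plus strand from base 96271457, the start of Hoxb9, to base 96354012, the end of Hoxb2, a span of 82556 bp. The flanking genes Hoxb13 (96194316 to 96197447) and Hoxb1 (96365752 to 96368256) were kept as neighbours and are not counted among the 8. RNA-seq of poly(A) RNA came from male mouse embryonic stem cells (mESC) of a C57BL/6/Cast F1 background, derived from individual blastocysts. Wild-type (wt) cells were Smchd1[fl/+] and maternally deleted (mat del) cells were Smchd1[del/+], with the deletion made in the oocyte by Zp3-Cre, a recombinase driven by an oocyte promoter. Cells of both genotypes therefore carry an intact paternal Smchd1 allele, and the deletion removes the oocyte's supply and the embryo's maternal allele. SMCHD1 is a chromatin protein that takes part in gene silencing.

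Cells were measured in 2i+LIF, a medium that holds mESC in a naive ground state, with 3 lines per genotype. A time course towards neuromesodermal progenitors (NMPs), the bipotent cells of the tail end of the embryo, gave 23 wt and 22 mat del libraries. Day 0 cells grew in DME+LIF, FGF was given from day 0, the Wnt activator CHIR99021 from day 2 and GDF11 from day 3, with libraries taken at days 0, 1 and 2, at day 2.5, and at days 3 and 4. Each day had 4 libraries per genotype, except wt day 1, mat del day 0 and mat del day 2.5 with 3. The sample titles place replicates 1 to 3 in line 1 and replicate 4 in line 2 of each genotype, while the study's text describes technical replicates spread evenly over both lines. Either way each genotype is 2 lines, and p-values mostly measure the spread between replicates within a line. By the titles mat del at days 0 and 2.5 holds line 1 only, so that comparisons with these groups set 1 mat del line against libraries of both lines.

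Hox genes encode homeodomain transcription factors that give cells along the head-to-tail axis their position. In a mammalian cluster the genes stand in the order in which they are switched on. Those at the 3′ end, here Hoxb1 and Hoxb2, come first and act most anteriorly, and those at the 5′ end, here Hoxb9 and then Hoxb13, come later and act more posteriorly. Wnt signalling, with the CDX factors downstream of it, opens the anterior and central part of the cluster in the early tail bud, and GDF11 acts on the shift to posterior Hox genes.

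Start-site sequence was at hand for 2 of the 8 genes, Hoxb8 and Hoxb4 (RefSeq, GRCm38.p6, 250 bases before and 50 after the start). They are shown because both genes rose after Wnt activation and the windows differ in the letters of the CDX motif. Both strands were searched for TTTATG (CDX) and CTTTGA (TCF/LEF), and matches are in capitals.
Hoxb8, chr11:96281655-96281954, plus strand: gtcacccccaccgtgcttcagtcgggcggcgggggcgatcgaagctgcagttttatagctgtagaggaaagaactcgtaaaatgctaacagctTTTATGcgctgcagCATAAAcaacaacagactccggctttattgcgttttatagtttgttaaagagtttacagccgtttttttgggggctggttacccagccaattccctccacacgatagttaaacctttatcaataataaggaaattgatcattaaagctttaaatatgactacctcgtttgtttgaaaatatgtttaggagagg
Hoxb4, chr11:96318017-96318316, plus strand: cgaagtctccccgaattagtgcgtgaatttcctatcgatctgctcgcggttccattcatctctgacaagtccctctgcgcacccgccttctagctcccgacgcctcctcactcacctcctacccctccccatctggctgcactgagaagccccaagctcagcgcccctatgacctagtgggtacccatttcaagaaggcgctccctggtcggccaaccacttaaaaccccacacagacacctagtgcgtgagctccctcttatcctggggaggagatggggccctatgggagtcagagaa
The Hoxb8 window held 2 CDX matches, TTTATG at 157 bases and its reverse complement CATAAA at 143 bases before the start, and the Hoxb4 window held 0. Neither window held the TCF/LEF letters. Of 32851 mouse promoter windows of this length, 11.9% held the CDX letters and 16% the TCF/LEF letters. A match is a description of the letters and not evidence of binding.

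Depth differed widely between libraries. The read total behind each Hox value, worked out from the values themselves, ranged from 346039 to 126805800 with a median of 14885313, and 10 of 45 libraries lay below 5000000. A gene with 0 reads carries the value of 0.9 reads, so its log2 RPKM is set by depth alone. At days 0 to 2, 87 of 168 member values were of this kind, leaving out mat del day 1 replicate 4, where the cluster was not measured. There were 2 such values at day 2.5, Hoxb5 and Hoxb7 in wt replicate 3, and 0 at days 3 and 4. 5 libraries stood apart. In mat del day 1 replicate 4, 0 of 36 tabulated genes on chromosomes 9 to 19 and X had reads, against 29 of 37 on chromosomes 1 to 8. The HoxB cluster, on chromosome 11, lies in the part without reads. In wt day 2 replicate 4 the Hox values stood on 346039 reads with 0 reads on the 8 genes, while its factor values stood on another depth. In mat del day 0 replicate 3, wt day 2 replicate 3 and mat del day 2.5 replicate 3, Ctnnb1 (β-catenin) was at 4.52 to 4.77 log2 RPKM, against 6.11 to 7.85 in 41 other libraries. The low values were not limited to Ctnnb1. The pluripotency gene Pou5f1 was at 4.77, 4.88 and 4.42 there, against 8.01 to 9.11 in the other libraries of these groups. Gsk3b, another tabulated factor, overlapped, at 1.45 to 2.02 against 1.76 to 3.76 in the 41 others. Calls that use these libraries were also made without them.

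In the 2i+LIF ground state the cluster was close to silent in both genotypes. Library totals were 27526359 to 126716460 counts. Smchd1 itself was at 108, 127 and 117 CPM, counts scaled to the library total, in the 3 wt lines and at 64.7, 73.6 and 86 CPM in the 3 mat del lines. The lines did not overlap, and edgeR gave a log2 difference of -0.63 with unadjusted p = 0.00231 and adjusted p = 0.992 over 17696 genes. Hoxb9, whose protein patterns the thorax, had the most counts of the 8 members, with 28, 162 and 20 in wt and 109, 161 and 26 in mat del, or 0.902 ± 0.445 and 1.05 ± 0.421 CPM (SD, n = 3). Hoxb4, a paralog 4 gene that acts in the neck region, followed with 0.639 ± 0.322 CPM in wt and 0.854 ± 0.173 CPM in mat del (SD, n = 3). Per length, Hoxb9 was at 0.351 and 0.407 RPKM and Hoxb4 at 0.249 and 0.333 RPKM in wt and mat del, within each other's spread. Of the flanking genes, Hoxb1 had 0 counts in all 6 lines and Hoxb13 had 9 to 129. Hoxb5 and Hoxb6 had 0 counts in all 6 lines, where 3 counts would be 0.0237 to 0.109 CPM. Hoxb8 had 0 to 7 counts per line, Hoxb3 0 to 26, Hoxb2 0 to 39 and Hoxb7 1 to 52. The antisense gene Hoxb3os, which overlaps Hoxb2 and part of Hoxb3 on the minus strand, had 0 to 59 counts in the same lines, and its reads may not be separable from theirs. Hoxb9, Hoxb7, Hoxb4 and Hoxb2 passed the count filter, and 0 of these 4 differed between genotypes by edgeR, with 0 also at unadjusted p under 0.05 and 0 of 6 by DESeq2. Over all genes 0% passed the adjusted threshold and 2.24% an unadjusted p under 0.05.

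The cluster stayed near the limit of detection up to day 2. All 8 genes together had 12 to 81 reads per wt library and 1 to 24 per mat del library at day 0, 0 to 14 and 1 to 39 at day 1 (mat del replicate 4 left out), and 0 to 27 and 12 to 160 at day 2. Hoxb5 and Hoxb6 had 0 reads in all 8 libraries of day 2. Hoxb2, the most 3′ member and a hindbrain gene, held 141 of the 210 member reads in mat del at day 2, of which 124 fell in replicate 4, the most deeply sequenced library. Relative to depth and length, pooled Hoxb2 was at 0.23 RPKM in mat del and 0.0885 RPKM in wt at day 2. Between day 0 and day 2, 0 of 8 members passed the limma test in either genotype, against 0% of all 39 genes, with or without the libraries that stand apart, and 0 members had an unadjusted p under 0.05, against 5.13% in wt and 10.3% in mat del. With edgeR on the recovered reads 1 of 8 fell in wt, Hoxb8 with adjusted p = 0.0336, against 5.71% of 35 genes with reads, and 0 of 7 did so in mat del. Of its 28 reads at wt day 0, 26 came from replicate 1. Genotypes were not distinguished at days 0, 1 or 2. No member passed limma or edgeR at the adjusted threshold, against 0% of the genes tested. Unadjusted, limma gave 0 members on each of these days, against 0% of the 39 genes. Unadjusted, edgeR gave 1 of 8 members at day 0, against 2.86% of 35 genes. It gave 0 of 6 at days 1 and 2, against 3.7% and 0%. By group mean 3 of 8 members were higher in mat del at day 0, beside 56.4% of the 39 genes, 1 of 8 at day 1, beside 25.6%, and 0 of 8 at day 2, beside 15.4%. These directions partly follow depth. The day 1 means include mat del replicate 4, where the cluster was not measured. At day 2 the mean over the 8 members was -0.01 log2 RPKM in wt replicate 4, on 0 reads. It was -5.14, -4.36 and -4.49 in wt replicates 1 to 3. By edgeR on the recovered reads the members' median difference at day 2 was 0.09. Leaving out the libraries that stand apart kept 0 calls at each of these days.

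**Figure D1:**
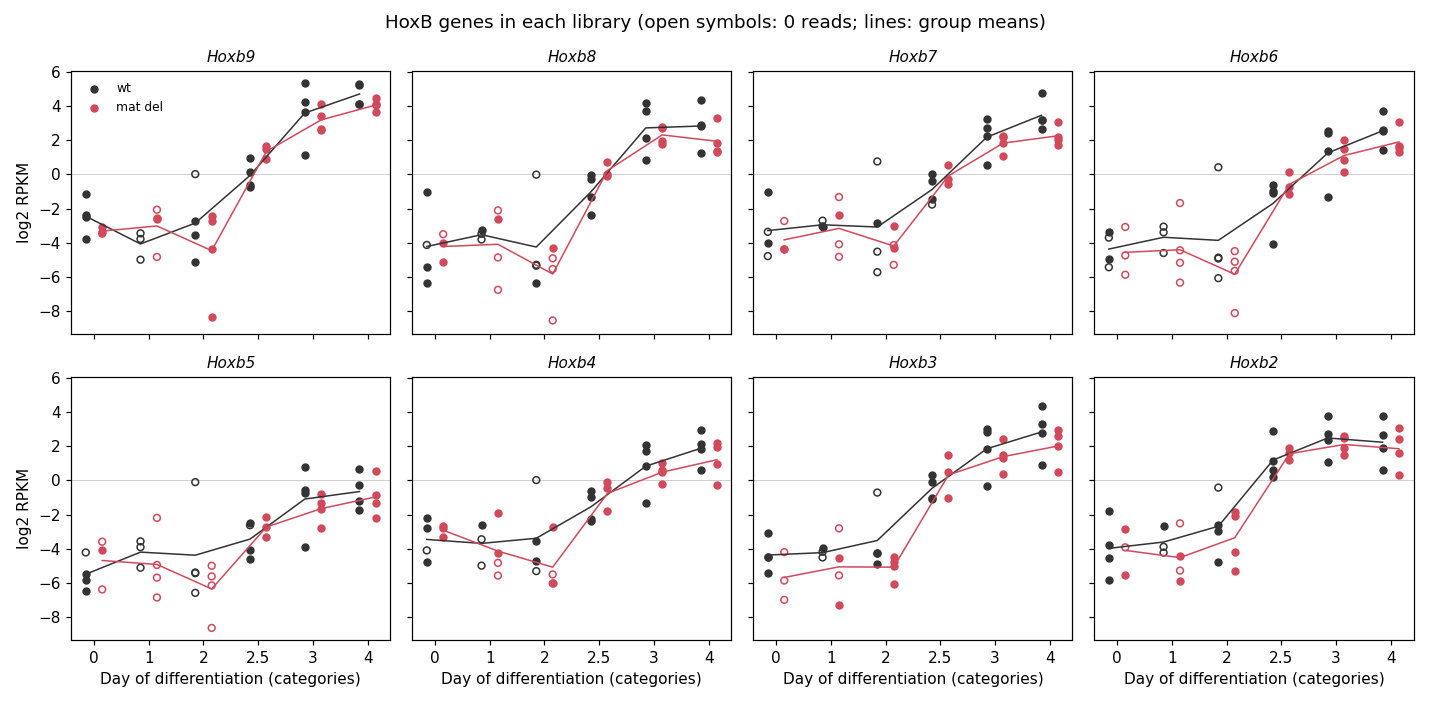
log2 RPKM (y axis) of each of the 8 genes in each library, by day of differentiation (x axis, days as categories), in wt (dark) and mat del (red). Open symbols are libraries with 0 reads for the gene, whose height is set by depth, and lines join group means. From day 2.5 on nearly all symbols are filled, and the group means lie above those of days 0 to 2. Single values overlap: the open symbols of wt day 2 replicate 4 lie above every day 2.5 value of Hoxb4, Hoxb5, Hoxb6 and Hoxb7. The symbols of both genotypes overlap at each of the last 3 days.

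Between day 2 and day 2.5, when the Wnt activator had been added, the pooled RPKM of each of the 8 genes was higher at day 2.5 in both genotypes. In mat del, 8 of 8 members rose by limma, with log2 differences between 3.62 (SE 1.05) for Hoxb5 and 6.05 (SE 1.05) for Hoxb8. Adjusted p-values were 0.00218 for Hoxb5 and 3.78e-07 for Hoxb8, the extremes of the set. At day 2, Hoxb5 had 0 reads in 4 of 4 libraries and Hoxb8 in 3 of 4, in each genotype. Fitted differences from such values, their SEs and the separation of groups partly follow depth. 64.1% of all 39 Hox genes rose in the same test. Groups did not overlap for 8 of 8 members, against 61.5% of the 39. The members' median difference was 5.09 on the log2 scale, beside 2.93 over all 39 genes, and 5.15 with Hoxb5 and Hoxb6, which had 0 reads at day 2, set at their bound. Leaving out mat del day 2.5 replicate 3 kept 8 calls, against 41% of the 39. Without mat del day 2 replicate 4, which by the titles leaves line 1 on both sides, 8 were called, against 64.1%.

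In wt the same step depended on 1 library. With all 4 day 2 libraries 0 of 8 members passed limma, against 2.56% of the 39 genes, although 8 of 8 differences were above 0, beside 74.4% of the 39, and 3 members had an unadjusted p under 0.05, against 17.9%. Without wt day 2 replicate 4, the library with 0 HoxB reads in 346039, 8 of 8 rose, against 59% of the 39. Differences were then 2.36 for Hoxb5 to 4.64 for Hoxb8, and adjusted p was 0.0139 for Hoxb5 and 2.51e-06 for both Hoxb8 and Hoxb2. edgeR on the recovered reads, which weighs that library by its depth, called 8 of 8 in wt, against 72.2% of 36 genes, and 8 of 8 in mat del, against 77.8%. The median fitted difference in wt was 2.48 with all libraries, 2.91 with Hoxb5 and Hoxb6 at their bound, and 1.29 over all 39 genes.

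The reads show the size of this step gene by gene. Pooled over libraries, Hoxb2 went from 18 reads to 1283 in wt and from 141 to 1111 in mat del, from 0.0885 to 4.24 RPKM and from 0.23 to 3.08 RPKM. Hoxb8, a thoracic-level gene near the 5′ end, went from 1 read to 179 in wt and from 3 to 319 in mat del, reaching 0.782 and 1.17 RPKM. Hoxb6, which had 0 reads at day 2, was at least 17.7-fold higher at day 2.5 in wt and at least 79.9-fold higher in mat del, against a floor of 3 reads over the group. For Hoxb5 the bounds were 5.82-fold and 25.5-fold. These bounds follow the depth of the day 2 libraries and cannot be compared between genotypes. Hoxb6 and Hoxb5 are overlapped on the other strand by Hoxb5os, and not all libraries were stranded, so a share of their reads may belong to it.

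At day 2.5 the level was already highest at the 3′ end. Hoxb2 stood at 1.12, 2.86, 0.21 and 0.58 log2 RPKM in wt replicates 1 to 4 and at 1.19, 1.87 and 1.63 in mat del. It exceeded Hoxb9, next in order, in 4 of 4 wt libraries by 1.26 ± 0.43 on the log2 scale (SD, n = 4), but in 2 of 3 mat del libraries with a gap of 0.23 ± 0.23 (SD, n = 3). Beyond the member set, Hoxb1, the most anterior gene of the cluster, was higher still, at 3.48 ± 0.79 in wt (n = 4) and 3.51 ± 0.32 in mat del (n = 3). Hoxb1 was the 1 gene of 39 that passed limma in wt with all libraries, with adjusted p = 9.51e-05.

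From day 2.5 to day 3, with Wnt activation continuing, the 5′ genes gained most. Hoxb9 was at 0.13, 0.97, -0.77 and -0.62 log2 RPKM in the wt replicates of day 2.5 and at 1.12, 5.35, 4.20 and 3.65 at day 3. These groups did not overlap, as for 3 of 8 members (Hoxb7, Hoxb8 and Hoxb9) and 23.1% of the 39 genes. In mat del it was at 0.90, 1.45 and 1.66 at day 2.5 and at 2.62, 4.09, 3.42 and 2.59 at day 3, also without overlap, with the same 3 members apart and 25.6% of the 39 genes. Hoxb8 went from -0.29, -0.05, -2.39 and -1.34 to 0.82, 4.18, 3.71 and 2.14 in wt. In mat del Hoxb8 went from -0.11, 0.04 and 0.74 to 1.75, 2.78, 2.68 and 1.97. Wt replicate 1 was the lowest library of day 3 for each of the 8 genes, and wt replicate 2 the highest for 7 of them.

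In wt 7 of 8 members rose in this step, against 41% of all 39 genes. Hoxb8 rose by 3.73 (SE 0.99, adjusted p = 0.00268), Hoxb9 by 3.65 (SE 0.99, adjusted p = 0.00271) and Hoxb7, the next gene towards 3′, by 3.06 (SE 0.99, adjusted p = 0.0106). Hoxb6 rose by 2.95, Hoxb4 by 2.38, Hoxb5 by 2.34 and Hoxb3 by 2.31, with adjusted p of 0.0125, 0.0473, 0.0488 and 0.0488. Hoxb2 was the member that did not pass, at 1.29 (SE 0.99, adjusted p = 0.358). In mat del 3 of 8 members rose, against 35.9% of the 39 genes: Hoxb8 by 2.07, Hoxb7 by 1.92 and Hoxb9 by 1.84, with adjusted p of 0.0378, 0.0435 and 0.0435. Hoxb6 at 1.68 had adjusted p = 0.0523, and it passed with the replicate number as a block (1.77, adjusted p = 0.0256) and without mat del day 2.5 replicate 3 (2.05, adjusted p = 0.0357). Hoxb2 differed by 0.54 (SE 0.67, adjusted p = 0.533). Median differences of the members were 2.66 in wt and 1.46 in mat del, beside 1.29 and 1.31 over all genes.

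The calls of this step rested on few libraries. In wt, leaving out 1 library left 2 to 7 members called, with 2 without day 2.5 replicate 4, day 3 replicate 2 or day 3 replicate 4, 3 without day 3 replicate 3, and 4 without day 2.5 replicate 1 or 2. In mat del it left 0 to 6, with 0 without day 2.5 replicate 1 or 2 or day 3 replicate 2, 3 or 4, and 6 without day 3 replicate 1. By the titles, leaving out mat del day 3 replicate 4 sets line 1 against line 1, and 7.69% of the 39 genes then passed. With libraries of at least 5000000 reads alone, 0 of 8 members passed in either genotype. In wt this left only replicates 1 and 2 at day 3, the lowest library for each of the 8 genes and the highest for 7. edgeR on the recovered reads of all libraries called 7 of 8 in wt, against 45.9% of 37 genes, and 3 of 8 in mat del, against 25% of 36.

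The size of the gain followed position in the cluster. Over the 8 genes, Spearman's rho between paralog number, 2 at the 3′ end to 9 at the 5′ end, and the day 2.5 to day 3 difference of the group means was 0.95 in wt and 0.90 in mat del. Within differentiation runs it was 0.50, 0.98, 0.71 and 0.64 in wt and 0.55, 0.93 and 0.86 in mat del. It was above 0 in all 7 runs. The value of 0.71 in wt run 3 started from a day 2.5 library with 19 reads on the 8 genes, where Hoxb5 and Hoxb7 had 0, so it partly follows depth. For the step from day 2 to day 2.5 rho was -0.10 in wt and 0.38 in mat del over the means, but at day 2, 19 of 32 wt and 15 of 32 mat del values stood at 0 reads, so these values cannot show whether an order existed. For day 3 to day 4 rho was 0.43 and 0.24 over the means, again with both signs among runs. These are descriptions over 8 genes that share their libraries.

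**Figure D2:**
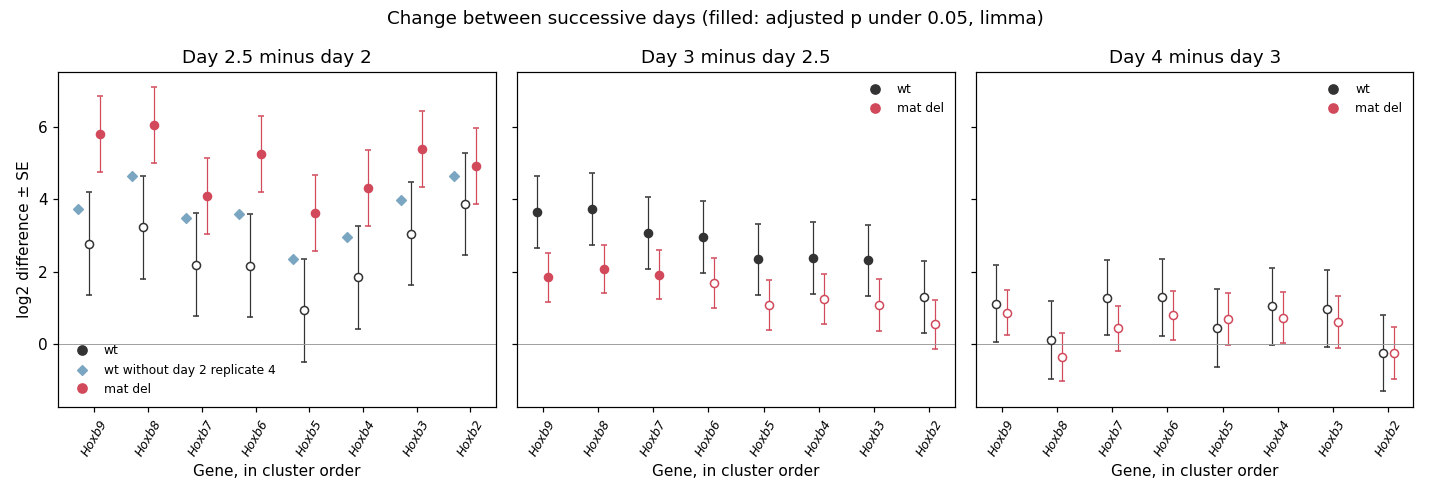
log2 difference ± SE (y axis) between successive days for each gene in cluster order, 5′ at the left (x axis), in wt (dark) and mat del (red). Filled circles have an adjusted p under 0.05 (limma), and blue diamonds give the wt step from day 2 without day 2 replicate 4. In the middle panel the differences decline from Hoxb9 and Hoxb8 towards Hoxb2 in both genotypes. In the right panel none is filled.

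From day 3, when GDF11 was added, no HoxB gene passed the test. In wt 0 of 8 members passed limma between day 3 and day 4, against 30.8% of the 39 genes that rose. In mat del it was 0 of 8, against 33.3%. At an unadjusted p under 0.05 the members called were 0 in both genotypes, against 35.9% of the 39 genes in each, and edgeR on the recovered reads called 0 of 8 in both, against 31.6% of 38 genes in wt and 36.8% in mat del. Hoxb9 stood at 4.13, 5.29, 5.22 and 4.13 log2 RPKM in wt at day 4 and at 4.11, 4.43, 3.64 and 4.02 in mat del. The difference from day 3 was 1.11 (SE 1.06, adjusted p = 0.489) in wt and 0.87 (SE 0.63, adjusted p = 0.438) in mat del, and it was above 0 in 3 of 4 wt runs and 4 of 4 mat del runs. Hoxb7 differed by 1.28 (SE 1.04) in wt and 0.43 (SE 0.63) in mat del. Hoxb2 differed by -0.26 (SE 1.05) in wt and by -0.25 (SE 0.71) in mat del, with 1 of 4 wt runs and 2 of 4 mat del runs above 0. Median differences were 1.01 in wt and 0.66 in mat del, beside 1.29 and 0.79 over all 39 genes. The groups overlapped for 8 of 8 members in both genotypes, while 30.8% of the 39 genes in wt and 25.6% in mat del had groups apart.

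By paralog 2 to 9 genes of each cluster, the step from day 3 to day 4 was called in 0 of 8 HoxB genes in wt, in 1 of 7 HoxA genes, in 2 of 5 HoxC genes and in 3 of 4 HoxD genes. In mat del the counts were 0 of 8, 1 of 7, 3 of 5 and 4 of 4. Median differences were 1.01 for HoxB, 1.06 for HoxA, 2.40 for HoxC and 3.42 for HoxD in wt. These counts were not tested against each other.

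By day 4 the order of levels along the cluster had changed. Hoxb9 was the highest member in 4 of 4 libraries of each genotype, with a mean of 4.69 ± 0.65 log2 RPKM in wt and 4.05 ± 0.32 in mat del (SD, n = 4). It exceeded Hoxb7, next in order, by 1.24 ± 0.65 in wt and 1.80 ± 0.30 in mat del. Hoxb5 was the lowest member in each of the 23 libraries of days 2.5, 3 and 4, and its day 4 values were -1.23, 0.69, -0.29 and -1.75 in wt and -0.86, 0.54, -2.20 and -1.30 in mat del. At day 4 Hoxb5 lay 2.52 ± 0.58 below Hoxb4 in wt and 2.17 ± 0.51 below it in mat del. Between these ends the order Hoxb7, Hoxb3, Hoxb8, Hoxb6, Hoxb2, Hoxb4 was the same by group mean in both genotypes. Neighbours in wt did not differ beyond their spread: there the mean gaps were 0.01 to 0.62 with SDs of 0.34 to 0.82, and no neighbour pair kept its order in all 4 libraries. In mat del Hoxb2 exceeded Hoxb4 in 4 of 4 libraries, by 0.64 ± 0.18, and the other gaps were 0.04 to 0.24.

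At day 3 Hoxb9 led in 4 of 4 libraries of both genotypes, with gaps to Hoxb8 of 0.87 ± 0.57 in wt and 0.88 ± 0.30 in mat del, and Hoxb8 and Hoxb2 could not be ordered, each being the higher in 2 of 4 libraries. Beyond the member set the cluster ended abruptly on its 5′ side. Hoxb13, the most posterior HoxB gene, which lies 74009 bp beyond Hoxb9, was at -3.22 ± 1.78 log2 RPKM in wt and -3.85 ± 0.74 in mat del at day 4 (SD, n = 4). Hoxb13 did not pass limma in any of the steps. On the 3′ side Hoxb1 was at 3.78 ± 2.03 and 3.10 ± 1.81 at day 4, a wider spread than that of any member.

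**Figure D3:**
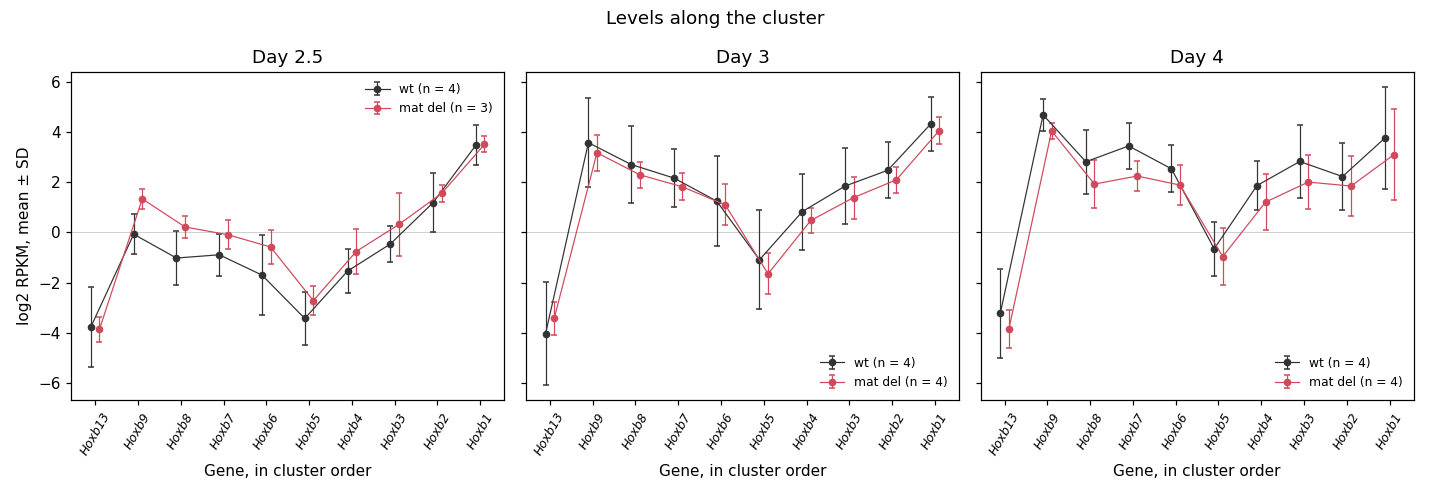
Mean log2 RPKM ± SD (y axis) of the 8 genes and the flanking Hoxb13 and Hoxb1 in cluster order (x axis), at days 2.5, 3 and 4, in wt (dark) and mat del (red). Hoxb5 forms the low point among the 8 at each day. The 5′ side lies higher at days 3 and 4 than at day 2.5, while the means of Hoxb13 lie between -4.03 and -3.22.

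A question of the study was whether the maternal deletion changes Hox activation at matched days. No HoxB gene was called by limma at any day, against 0% of the 39 Hox genes. At day 2.5, 8 of 8 members were higher in mat del by group mean, beside 64.1% of the 39 genes, with differences from 0.37 (SE 0.82) for Hoxb2 to 1.41 (SE 0.82) for Hoxb9. The adjusted p was 0.563 for Hoxb9, and 0 members had an unadjusted p under 0.05, against 5.13% of the 39 genes. Intervals (95%) ran from -0.20 to 3.02 for Hoxb9 and from -1.24 to 1.98 for Hoxb2. The mat del values of Hoxb9 lay between 0.90 and 1.66 and the wt values between -0.77 and 0.97. The groups thus overlapped, as they did for 8 of 8 members, and 0% of the 39 genes had groups apart. Mat del replicate 3, 1 of the libraries with low Ctnnb1 and Pou5f1, was the highest mat del library for 7 of the 8 genes. Without it the median difference was 0.46 instead of 0.79, Hoxb9 differed by 1.25 and Hoxb3 by 0.21, and 8 of 8 were still above 0 by mean. Without wt replicate 4, which by the titles leaves line 1 in both genotypes, the median was 0.76 and 0 of 8 were called. The part of that library's difference in the result was not tested. edgeR on the recovered reads called 0 of 8, against 0% of 36 genes, and gave -0.04 for Hoxb2. With edgeR 0 members had an unadjusted p under 0.05, against 11.1% of the 36.

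At days 3 and 4 the means pointed the other way. At day 3, 0 of 8 members were higher in mat del, beside 25.6% of the 39 genes, with differences from -0.56 (SE 0.95) for Hoxb5 to -0.15 (SE 0.95) for Hoxb6. At day 4, 0 of 8 were higher, beside 12.8%, from -1.20 (SE 0.76) for Hoxb7 to -0.31 (SE 0.85) for Hoxb5. Hoxb7 at day 4 was at 3.18, 4.76, 3.19 and 2.67 log2 RPKM in wt and at 2.19, 3.07, 1.71 and 2.03 in mat del, with 1 of 4 mat del libraries above the lowest wt library. The direction at day 3 rested on 1 library: without wt day 3 replicate 2, the highest for 7 of the 8 genes, the differences of Hoxb2, Hoxb4, Hoxb5, Hoxb6, Hoxb8 and Hoxb9 were 0.04, 0.06, 0.07, 0.23, 0.07 and 0.19. For Hoxb7 at day 4 the adjusted p was 0.649 and the 95% interval -2.84 to 0.44. No member had an unadjusted p under 0.05 by limma or by edgeR at either day, against 0% of the genes tested. The 95% intervals of the 8 members spanned -2.43 to 1.72 at day 3 and -2.84 to 1.56 at day 4, and changes within these ranges were not distinguished from 0 here. Median differences of the members were -0.39 at day 3 and -0.65 at day 4, beside -0.22 and -0.75 over all 39 genes.

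Whether the steps themselves differed between genotypes was tested as an interaction. None of the 8 members passed in any of the 4 steps by limma or by edgeR, against 0% of the 39 genes. By limma 0 members had an unadjusted p under 0.05 in any step. Over the 39 genes the share was 2.56% from day 3 to day 4 and 0% in the other steps. By edgeR 1 of 8 members did, between day 2.5 and day 3, against 10.8% of 37 genes. Without the libraries that stand apart limma still called 0 members in each of the 3 steps that include them. From day 2.5 to day 3 the mat del minus wt difference of the gain was above 0 for 0 of 8 members, beside 35.9% of the 39 genes. It ran from -0.75 (SE 1.12) for Hoxb2 to -1.81 (SE 1.19) for Hoxb9 on the log2 scale, with adjusted p = 0.823 for each by limma. From day 2 to day 2.5 this difference was above 0 for 8 of 8 members, beside 94.9% of the 39 genes. The members' median was 2.58, beside 1.11 over the 39 genes. By edgeR on the recovered reads it was 0.81, beside 0.20 over 36 genes. Day 2 values at 0 reads are set by depth, so the size of this difference partly follows depth.

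**Figure D4:**
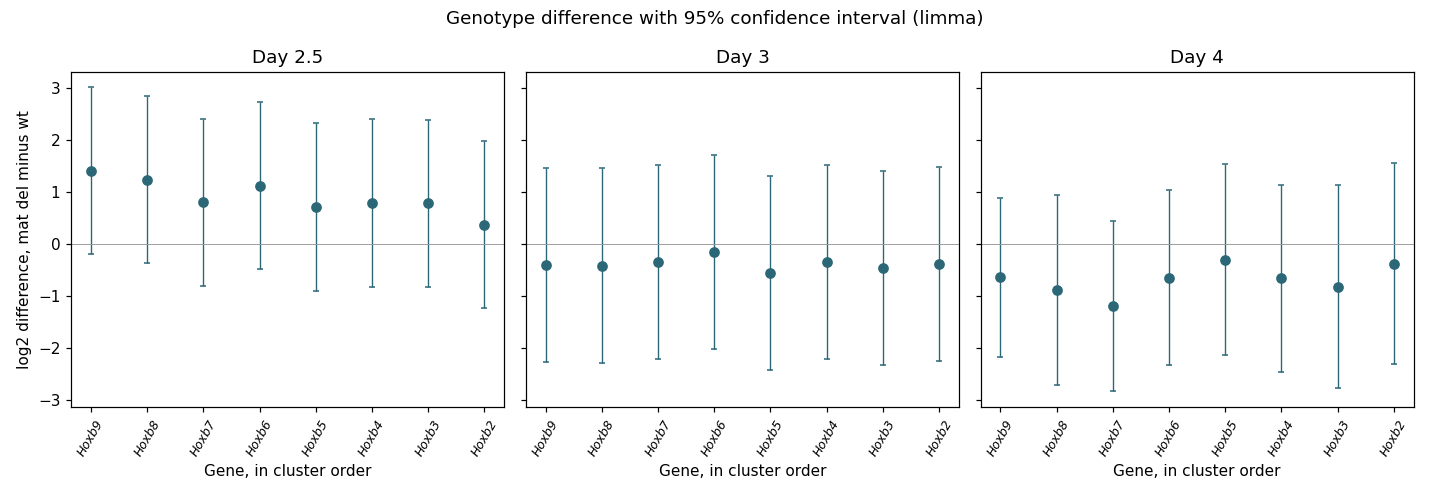
log2 difference of mat del minus wt (y axis) for the 8 genes in cluster order (x axis) at days 2.5, 3 and 4, with 95% confidence intervals from limma. All points lie above 0 at day 2.5 and below 0 at days 3 and 4, and every interval includes 0.

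The 8 genes moved together. Over the 45 libraries Pearson's r between members was 0.810 to 0.962 with a median of 0.921 over 28 pairs, and over the 23 libraries of days 2.5 to 4 it was 0.607 to 0.982 with a median of 0.879. Without the libraries that stand apart the medians were 0.926 over 40 libraries and 0.881 over 22. These are descriptions, since libraries share days and depth sets the value of genes with 0 reads. The 3 genes whose 12 group means followed the HoxB mean most closely were Hoxc5 (r = 0.996), Fgf8, a growth factor gene of the tail bud (r = 0.983), and Hoxd1 (r = 0.969). Without the libraries that stand apart, Hoxc5 (r = 0.996) and Fgf8 (r = 0.974) again led, followed by Hoxc4 (r = 0.968).

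7 of 13 listed genes that act with the cluster in the tail bud were in the factor table, among 34 factors. T, the mesoderm factor Brachyury that marks NMPs, rose from -2.56 to 6.60 log2 RPKM between day 2 and day 2.5 in wt and from -2.41 to 6.26 in mat del. Cdx1, which encodes a Hox-regulating homeodomain factor, rose from -2.50 to 6.18 and from -2.46 to 5.71. Cdx2, its relative, rose from -1.31 to 5.14 and from -1.14 to 4.89. In this step 6 of the 7, which also include Nkx1-2, Fgf8 and Wnt3a, rose in both genotypes by limma, against 38.2% of the 34 factors in wt and 29.4% in mat del, and each of the 6 had an adjusted p of 0.0348 or lower without the libraries that stand apart. Sox2, a pluripotency and neural factor, did not pass in this step. None of the 7 passed from day 2.5 to day 3, against 0% of the 34 factors in each genotype. In wt the means of Wnt3a and Fgf8 were -1.04 and 1.42 at day 2.5 and 2.79 and 3.72 at day 3. T, Cdx1 and Cdx2 were also higher at day 3. Nkx1-2 and Sox2 were lower, at 5.43 and 4.10 beside 5.64 and 4.58. Between day 3 and day 4 the NMP marker Nkx1-2 fell from 5.43 to 0.83 in wt and from 5.19 to 0.80 in mat del, and Sox2 from 4.10 to 1.88 and from 4.10 to 1.55. Cdx1 and Cdx2 fell in mat del (adjusted p = 0.0264 and 0.0458) and had adjusted p of 0.0528 and 0.0565 in wt. In all, 2 of 7 fell in wt and 4 of 7 in mat del, against 20.6% of the 34 factors in each. None of the 7 differed between genotypes at day 2.5, 3 or 4 by limma, against 0% of the 34 factors.

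The markers of the labelled states were looked at in the same table. The pluripotency genes Pou5f1, Nanog, Sox2, Klf4 and Esrrb were at 8.75, 6.05, 6.93, 3.43 and 4.58 log2 RPKM in wt at day 0. By day 4 they were at 4.58, 2.75, 1.88, 0.58 and 0.26 in wt and at 5.34, 2.51, 1.55, 1.48 and 0.65 in mat del. Not all fell steadily: in wt the Klf4 mean was lowest at day 2, at -0.91. Nanog was at 3.41 in wt at day 2 and 5.26 at day 2.5. The NMP markers T, Sox2, Nkx1-2 and Cdx2 were, at day 2.5 in wt, at 6.60, 4.58, 5.64 and 5.14. The mesoderm, neural and endoderm markers looked for, such as Tbx6, Pax6 and Sox17, were not among the tabulated factors, so these lineages were not assessed. In bulk samples, fewer cells that express a gene and less RNA per cell cannot be told apart.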

How the data were processed

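Poly(A) RNA-seq of 45 time-course libraries and 6 2i+LIF lines was used. Per the labels and the study's methods, the authors trimmed reads with Trim Galore 0.4.4, aligned them to GRCm38.p6 with HISAT2 2.0.5 and quantified genes in SeqMonk. The Hox and factor tables deposited by the authors hold log2 RPKM, scaled to library size and transcript length, and the 2i file holds raw counts per gene. Libraries were made with a stranded or a non-stranded kit, so antisense reads cannot be told apart in all of them.

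Each log2 value was turned back into reads, and all 1755 Hox values came out whole within 0.01 reads in 45 of 45 libraries. The time-course count columns were not used: the Hox reads equalled the column of the same name in 7 libraries, that of another name in 35 and none in 3. Which of the differing names are right was not tested. All time-course comparisons rest on the names given with the log2 RPKM values. Groups were taken from the labels, and no column of another sample was used. limma 3.58.1 was fitted on log2 RPKM to the groups of each comparison, with Benjamini-Hochberg adjustment over all 39 Hox genes (34 factors) and a threshold of 0.05. edgeR 4.0.16 (quasi-likelihood) was run on the recovered reads and on the 2i counts, where DESeq2 1.42.0 was the alternative. Fits were tested on simulated data. Intervals from reads and floors of 3 counts cover counting error only.

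The replicate number was read, from the design text, as a differentiation run within a genotype. Samples of the same number correlated at -0.28 to 0.67 over 39 genes between successive days, and at -0.56 to 0.56 between genotypes, where the labels state no pairing. Named genes were the 8 members, the flanking Hoxb1 and Hoxb13, a list of 13 tail bud genes, Smchd1 and the 3 genes most like the HoxB mean. The members and lists were chosen with earlier results of these data known. Other settings were log2(RPKM + 1) and log2(RPKM + 0.1), a filter on mean level, 1 fit over 12 groups, a depth minimum of 5000000 reads, a replicate block and leaving out each library. Leaving out the 5 libraries that stand apart, the descriptions without them, and the factor fits were added after seeing the data. Gene positions came from GENCODE M21. R 4.3.3 and Python 3.11.15 were used.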

Additional observations from a re-analysis of the deposited data

Results flagged for a closer look

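In 4 of 72 tests of a gene in a group of 4 libraries, 1 library lay far from the other 3 by Dixon's criterion, and chance gives about 1 in 20. In wt at day 2, replicate 4 was the highest for Hoxb3 at -0.71 log2 RPKM and for Hoxb8 at -0.02, in each case with 0 reads, so the value is that of an undetected gene in a library of 346039 reads. In mat del at day 2, replicate 2 was the highest for Hoxb4 at -2.72 log2 RPKM, on 4 reads. In wt at day 2.5, replicate 4, placed in line 2 by its title, was the lowest for Hoxb6 at -4.09 log2 RPKM, on 2 reads.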

How the results depend on the processing

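Of 306 alternative values of the counts of called members, 280 stayed on the same side of the threshold and within 1.5 times; the cause of the others was not tested unless stated. For wt from day 2 to day 2.5, where 0 of 8 were called, log2(RPKM + 1) and log2(RPKM + 0.1) each gave 1, 1 fit over 12 groups 4, and libraries of at least 5000000 reads, edgeR on recovered reads and leaving out the libraries that stand apart each 8. Leaving out 1 library gave 0 to 8, with 8 without wt day 2 replicate 4. For wt from day 0 to day 2, edgeR on reads gave 1. For wt from day 2.5 to day 3, where 7 of 8 were called, log2(RPKM + 1) gave 3, the mean-level filter 4 of the 5 members it tested, the 12-group fit 4 and the depth minimum 0, and leaving out 1 library 2 to 7. For mat del in this step, with 3 of 8, the 12-group fit and the depth minimum gave 0 and leaving out 1 library 0 to 6.

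The replicate block gave 4 of 8 for mat del from day 2.5 to day 3, adding Hoxb6 (1.77, adjusted p = 0.0256), 7 of 8 for wt in that step, 8 of 8 for mat del from day 2 to day 2.5, and 0 in each other comparison, where it changed no other call. Between genotypes the numbers are only shared.

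Signs turned for values that were not called. With edgeR on reads, Hoxb2 differed between genotypes by -0.04 at day 2.5, and from day 3 to day 4 Hoxb5 by -0.05 and Hoxb8 by -0.02 in wt and Hoxb2 by 0.01 in mat del. With the depth minimum, the genotype difference was 0.64 for Hoxb6 and 0.14 for Hoxb9 at day 3 and 0.13 for Hoxb2 and 0.14 for Hoxb5 at day 4, and the day 3 to day 4 difference of Hoxb8 in wt was -0.19. Hoxb5 in wt from day 2 to day 2.5 gave -0.11 with log2(RPKM + 1) and -0.02 with log2(RPKM + 0.1). Leaving out 1 library, the genotype difference at day 3 ranged from -0.86 to 0.04 for Hoxb2, -1.06 to 0.06 for Hoxb4, -1.49 to 0.07 for Hoxb5, -1.01 to 0.27 for Hoxb6, -0.89 to 0.00 for Hoxb7, -1.05 to 0.07 for Hoxb8 and -1.22 to 0.19 for Hoxb9. At day 4 it ranged from -0.93 to 0.14 for Hoxb2 and -0.81 to 0.14 for Hoxb5. From day 3 to day 4 the ranges were -0.76 to 0.29 for Hoxb2, -0.48 to 1.07 for Hoxb5 and -0.53 to 0.63 for Hoxb8 in wt, and -0.66 to 0.27 for Hoxb2 in mat del. In 2i they were -1.47 to 0.77 for Hoxb7 and -0.10 to 0.60 for Hoxb9. Depth limits days 0 to 2, where most member values rest on 0 reads.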
